A study of Mus musculus with 18 samples.

Results

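The expression of 10 genes that make, activate, receive or restrain transforming growth factor beta (TGF-beta) was examined in sorted mouse T cells. The genes were Tgfb1, Furin, Lrrc32, Itgb8, Tgfbr1, Tgfbr2, Tgfbr3, Smad3, Smad7 and Ski. They were chosen by symbol for their place in the pathway and not picked by a measured value, although earlier results of these data were known. All 10 were among the 15402 genes of the table. Each had a mean log2 value of at least 3, so all 10 were also among the 13190 genes tested.

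RNA was sequenced from 6 T-cell populations of female Foxp3-Tocky mice, in which transcription of Foxp3 drives a fluorescent Timer that turns from blue to red with age. All mice carried C57/BL6 Foxp3Timer Foxp3-IRES-GFP, and all were sensitised with 3% oxazolone on the abdominal skin 5 days before the draining inguinal and axillary lymph nodes were taken, so no population came from an untreated mouse. Foxp3-negative cells, without Timer or GFP, made up the sorted CD44lo population, Tnaive, and the CD44hi one, Teff. Timer+ cells were sorted by the level of either form, as Pers1 (intermediate blue, low red), Pers2 (high in both), PAt (low blue, high red) and Arrested (no blue, intermediate red), of which the former pair are the persistent populations, with ongoing Foxp3 transcription, and the latter pair are written here as PAt/Arrested. Each population had 3 libraries, each from a pool of 3 mice, which gave 18 libraries. The Timer reports transcription of Foxp3 and is no measure of TGF-beta.

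TGF-beta is made as a precursor that furin cuts, and the cut growth factor stays bound to its own propeptide as a latent complex. GARP, the product of Lrrc32, holds the latent complex on the surface of regulatory T cells and platelets, and the integrin alpha-v beta-8, whose beta subunit is Itgb8, pulls the growth factor free. The active ligand brings together the receptors TGFBR2 and TGFBR1, which phosphorylate SMAD2 and SMAD3. SMAD7 blocks the receptor and SKI represses SMAD target genes, and both act as brakes. In T cells TGF-beta induces Foxp3 in naive cells and limits effector responses.

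The cleavage and activation sites of the ligand are shown because Furin and Itgb8 act there. Both lie in exon 5, in the coding sequence of a Tgfb1 transcript (GENCODE vM21, GRCm38, + strand) that encodes 390 residues. The capitals mark the codons of the Arg-His-Arg-Arg motif cut by furin, residues 275 to 278, and of the Arg-Gly-Asp motif bound by alpha-v integrins, residues 244 to 246.
Furin site, chr7:25697223-25697258: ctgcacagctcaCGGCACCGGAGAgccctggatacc
Integrin site, chr7:25697130-25697162: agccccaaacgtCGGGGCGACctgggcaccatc

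Promoter windows of 300 bases around annotated starts (RefSeq, GRCm38.p6) were searched for 7 of the 10 genes, with 9 windows in all. None was found for Lrrc32 and Tgfbr3, and Smad7 was left out, so its promoter was not searched. The windows of Itgb8 (- strand) and Tgfbr1 (+ strand, with separate starts) are shown, since both genes differed within both Timer+ pairs as described below. The capitals mark CAGACA, which holds the short SMAD-binding core CAGAC, in the Itgb8 window and the second Tgfbr1 window, and GGGCGG, a GC box, in the first Tgfbr1 window.
Itgb8, chr12:119238227-119238526: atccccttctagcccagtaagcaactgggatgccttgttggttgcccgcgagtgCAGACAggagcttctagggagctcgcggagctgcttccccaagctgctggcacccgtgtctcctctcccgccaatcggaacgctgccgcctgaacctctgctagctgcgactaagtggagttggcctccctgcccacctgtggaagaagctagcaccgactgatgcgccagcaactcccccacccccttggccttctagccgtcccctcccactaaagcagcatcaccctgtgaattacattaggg
Tgfbr1 first start, chr4:47352972-47353271: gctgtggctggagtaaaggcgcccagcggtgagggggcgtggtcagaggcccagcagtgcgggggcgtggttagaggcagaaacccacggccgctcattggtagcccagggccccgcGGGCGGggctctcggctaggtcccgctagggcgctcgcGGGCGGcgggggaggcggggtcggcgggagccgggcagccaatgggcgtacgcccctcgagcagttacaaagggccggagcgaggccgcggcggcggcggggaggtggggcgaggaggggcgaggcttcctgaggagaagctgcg
Tgfbr1 second start, chr4:47385966-47386265: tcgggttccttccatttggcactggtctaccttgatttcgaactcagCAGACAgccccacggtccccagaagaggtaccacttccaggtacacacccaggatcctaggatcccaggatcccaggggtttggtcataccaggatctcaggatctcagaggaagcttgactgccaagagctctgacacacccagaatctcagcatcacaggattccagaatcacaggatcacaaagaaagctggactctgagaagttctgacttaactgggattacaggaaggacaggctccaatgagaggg
On either strand, CAGACA was present in 21.0% of 32851 promoter windows and GGGCGG in 35.7%. CAGACA also matched 1 time in each Furin window, and Furin did not differ within either Timer+ pair. GGGCGG also matched 6 times in each of the Tgfb1 and Ski windows, and 2 times in a Furin window and in the Smad3 window. The palindromic SMAD-binding element GTCTAGAC was present in 0.213% of windows and in none of the 9, which do not include Smad7. The forkhead motif TGTTTAC was present in 3.65% of windows, and 1 match lay in a Furin window. Such a match is a run of letters and not a measured binding site.

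The deposited values are log2 normalised counts in the form of the DESeq2 regularised log, which draws the differences of genes with few reads towards 0. Levels were not divided by gene length, so they can be compared between populations but not between genes. Depth is unknown, as read counts were not analysed here, and precision comes from the spread of 3 libraries. The median log2 value of a library ran from 8.962 to 9.162. Foxp3, which marks regulatory T cells, had means of 14.42 to 14.82 in the Timer+ populations, 11.34 in Tnaive and 10.54 in Teff cells, and Cd3e, a defining T cell gene, had means of 13.66 to 13.87 in all 6. The summed level of 7 dendritic cell markers was 11.53 to 12.08 on the log2 scale in the Teff libraries and 7.48 to 8.94 in the other 15, with 6 of the 7 markers highest in Teff. B cell markers (5 of 6), macrophage and monocyte markers (5 of 5) and CD8 T cell markers (2 of 2) were also highest in Teff, with summed levels of at least 12.68, 10.63 and 11.51. Of 4 NK cell markers 3 were highest in Teff (Klrb1c, Ncr1 and Klre1), and their sum was highest in Tnaive libraries (9.13 to 9.42), where it was mostly Eomes. Of 4 stromal and endothelial markers 1 each was highest in Tnaive, Teff, Pers2 and PAt, and their sum (11.86 to 13.08 over all libraries) was mostly Pecam1. The sum of the 2 of 7 platelet markers in the table lay between 6.88 and 8.01 in all libraries. The part of such cells in the results was not tested. Markers of regulatory T cells summed to at least 16.08 in Timer+ libraries and at most 14.34 in the others. The sum of those of CD4+ T cells lay between 16.91 and 17.42 in all 18.

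Populations were compared in 1 limma model over the 18 libraries, and a gene was called when its Benjamini-Hochberg adjusted p was under 0.05 and its absolute log2 fold change over 1. All adjusted p-values below come from this model. Because RNA came from bulk sorted cells, fewer cells that express a gene and less of its RNA in each cell cannot be told apart. The plot of the 10 genes by population shows every library.

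**Figure D1:**
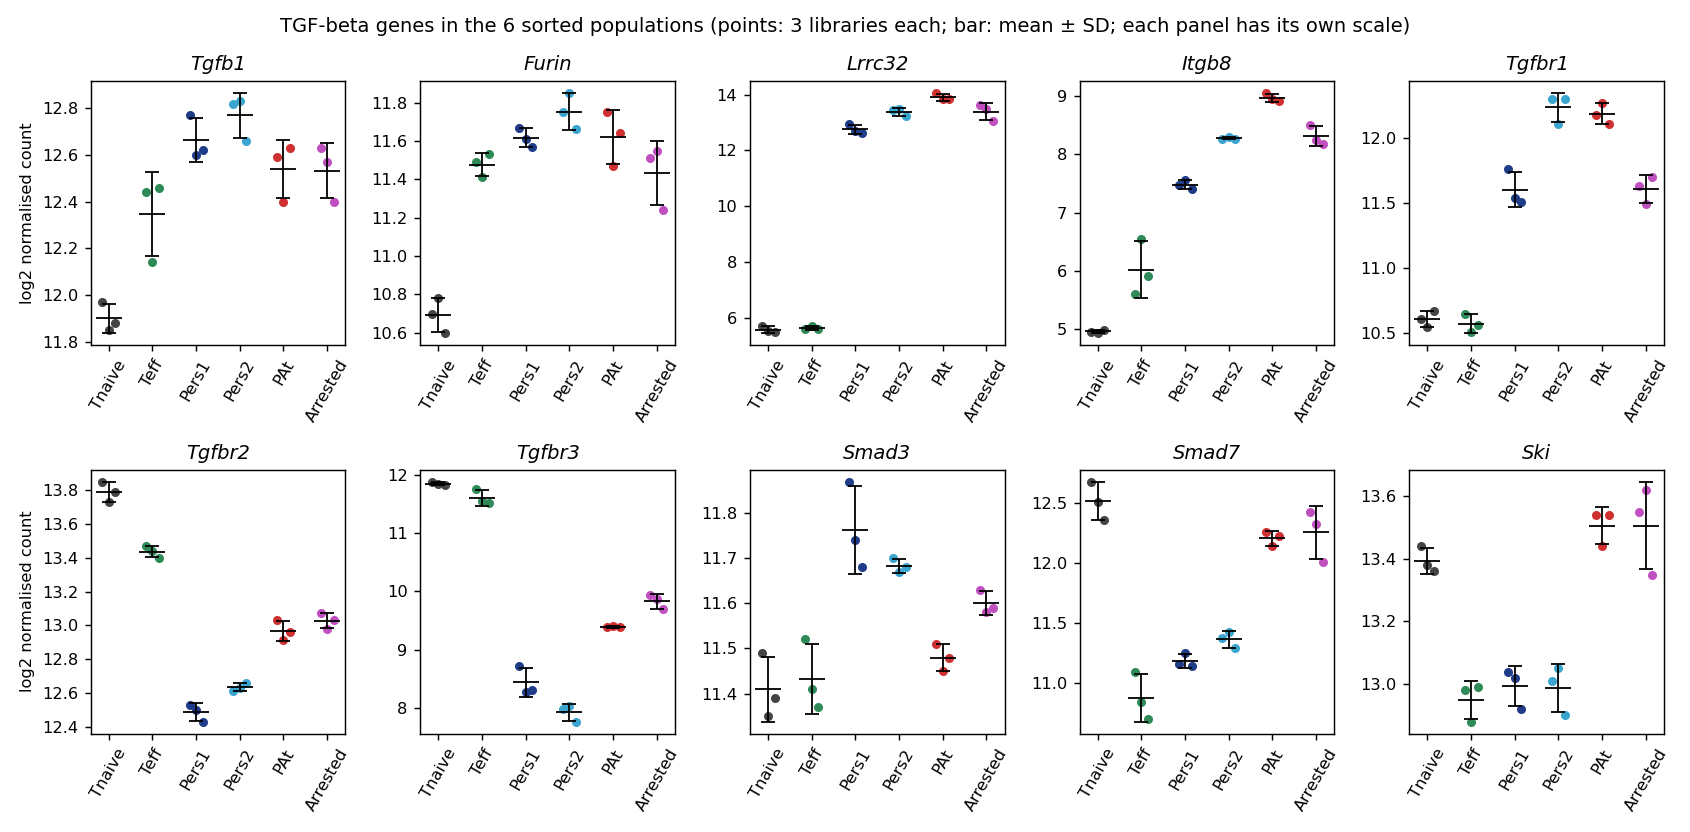
Log2 normalised counts (y axis, its own range in each panel) of the 10 genes in the 6 populations (x axis). Points are single libraries, 3 per population, and bars are the mean ± SD. Lrrc32, Itgb8 and Tgfbr1 sit higher in all 12 Timer+ libraries than in all 6 Timer-negative libraries, and Tgfbr2 and Tgfbr3 sit lower.

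The ligand gene Tgfb1 was expressed in all 6 populations over a narrow range. Its lowest level was in Tnaive cells, 11.9 ± 0.06 (mean ± SD, n = 3), and its highest was in Pers2 cells, 12.77 ± 0.09. In Teff libraries it was 12.44, 12.14 and 12.46, and in the 12 Timer+ libraries it ran from 12.4 to 12.83. The Timer+ and Timer-negative ranges overlapped because of the Teff libraries. Tgfb1 was higher in Teff than in Tnaive cells by 0.45 ± 0.08 on the log2 scale (± SE, adjusted p = 9.2e-05), and in PAt/Arrested cells than in Tnaive cells by 0.64 ± 0.07 (adjusted p = 1.7e-07). It was higher in persistent than in PAt/Arrested cells by 0.18 ± 0.06 (adjusted p = 0.00958), a difference that missed the threshold when each library was centred on its median (0.11, adjusted p = 0.0897). Neighbours in the order Pers2, Pers1, PAt, Arrested and Teff did not differ beyond their spread. The persistent libraries, at 12.6 to 12.83, were all above the Teff ones, with an adjusted p of at most 0.00342 in all 16 settings. For PAt/Arrested against Teff cells the adjusted p was 0.0301, and it reached 0.335 without Teff replicate 2. No fold change of Tgfb1 in the comparisons here exceeded 1 on the log2 scale. Igsf8, Eva1b and Cxx1b had the patterns most like it over the 18 libraries (Pearson r of 0.973, 0.969 and 0.969).

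Furin, the protease that cuts the precursor, followed a similar order. It was lowest in Tnaive cells, at 10.69 ± 0.09, and ran from 11.24 to 11.85 in the other 15 libraries. Furin was higher in Teff than in Tnaive cells by 0.78 ± 0.08 (adjusted p = 3e-08) and in PAt/Arrested than in Tnaive cells by 0.84 ± 0.07 (adjusted p = 1.3e-09). Between the persistent populations and PAt/Arrested cells the difference was 0.16 ± 0.06 (adjusted p = 0.0168), and it missed the threshold after centring (0.09, adjusted p = 0.153) and without any 1 of Pers2 replicate 2 (adjusted p = 0.051), PAt replicate 2 (adjusted p = 0.0588) or Arrested replicate 3 (adjusted p = 0.0582). Furin shares its locus with an antisense gene, Gm44851, and it is not given in the sources used here whether reads were counted by strand. Over the 18 libraries, which fall into populations, Furin and Tgfb1 had a Pearson r of 0.937, given as a description, and the genes most like Furin were Cchcr1, Eml2 and Slc4a8 (0.976, 0.973 and 0.972).

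The largest fold changes of the group were those of Lrrc32. GARP, its product, anchors latent TGF-beta on the cell. Its levels were 5.7, 5.53 and 5.48 in Tnaive and 5.58, 5.7 and 5.58 in Teff libraries. In Pers1 they were 12.94, 12.7 and 12.62, in Pers2 libraries 13.46, 13.49 and 13.22, in PAt libraries 14.06, 13.83 and 13.83, and in Arrested libraries 13.64, 13.47 and 13.07. No Timer+ library came near a Timer-negative one, and the highest values lay in PAt. Lrrc32 was higher than in Teff cells by 7.45 ± 0.1 in the persistent populations (adjusted p = 5.4e-22) and by 8.03 ± 0.1 in PAt/Arrested cells (adjusted p = 1.2e-22). Against Tnaive cells, PAt/Arrested cells differed by 8.08 ± 0.1 (adjusted p = 3.5e-23). Teff and Tnaive cells did not differ beyond their spread (0.05 ± 0.12, adjusted p = 0.745). The Teff libraries held the most marker RNA of dendritic cells, B cells and macrophages, whose part in the Lrrc32 level was not tested. The fold changes of Lrrc32 against Teff and Tnaive cells start from a low level, where the transform has most effect.

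Lrrc32 also varied among the Timer+ populations. It was lower in persistent than in PAt/Arrested cells by 0.58 ± 0.08 (log2 fold change -0.58, adjusted p = 2e-06). In the order of means, PAt stood first, Arrested and Pers2 did not differ (0.01 ± 0.12, adjusted p = 0.963), and Pers1 was the lowest of the Timer+ populations. Lrrc32 lies on chr7:98489283-98502181 (GRCm38, + strand). Of the other genes tested, Map6, Cish and Rln3 had the patterns most like that of Lrrc32, with a Pearson r of 0.993, 0.991 and 0.983 over the 18 libraries.

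Itgb8, the beta subunit of the activating integrin, was low in Tnaive, intermediate in Teff and high in Timer+ cells. Its levels were 4.96, 4.94 and 4.99 in Tnaive libraries and 5.6, 6.55 and 5.92 in Teff libraries. In Pers1 they were 7.47, 7.56 and 7.4, in Pers2 libraries 8.26, 8.29 and 8.27, in PAt libraries 9.05, 8.94 and 8.92, and in Arrested libraries 8.51, 8.25 and 8.18. Every Timer+ library was above every Timer-negative library, and Teff was the most spread of the 6 populations. Itgb8 was higher than in Teff cells by 1.85 ± 0.14 in the persistent populations (adjusted p = 2.3e-10) and by 2.62 ± 0.14 in PAt/Arrested cells (adjusted p = 9.3e-13). Against Tnaive cells the latter difference was 3.68 ± 0.14 (adjusted p = 2.4e-15). It was lower in persistent than in PAt/Arrested cells, with a log2 fold change of -0.77 ± 0.11 (adjusted p = 3.6e-06).

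Itgb8 was also called higher in Teff than in Tnaive cells, by 1.06 ± 0.16 (adjusted p = 7.8e-06). That call rested on Teff replicate 2, since without it the difference was 0.79, with an adjusted p still under 0.05. That library also had the highest sum of dendritic cell markers of the 3, 12.08, and the other Teff libraries did not keep the same order. Replicate 3 had the lowest sum, 11.53, with an Itgb8 level of 5.92. Replicate 1 had a sum between those of replicates 2 and 3 and the lowest Itgb8 level, 5.6. The sum of macrophage and monocyte markers did not follow the order of Itgb8 either. Those of B cell and CD8 T cell markers did, highest in replicate 2 and lowest in replicate 1. For B cells replicates 2 and 3 were close, at 13.21 and 13.19. The part of any of these cells in the Itgb8 level was not tested. The gene lies on chr12:119158022-119238802 (- strand), and the window shown above holds its RefSeq start. The patterns most like that of Itgb8 were those of Nol4l, Dst and Myo3b (Pearson r of 0.99, 0.987 and 0.983).

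The receptor genes went in opposite directions. Tgfbr1, the type I receptor that phosphorylates SMAD2 and SMAD3, had levels of 10.61, 10.55 and 10.67 in Tnaive and 10.65, 10.51 and 10.56 in Teff libraries. In Pers1 they were 11.76, 11.54 and 11.51, in Pers2 libraries 12.3, 12.11 and 12.3, in PAt libraries 12.18, 12.27 and 12.11, and in Arrested libraries 11.63, 11.49 and 11.7. The Timer+ libraries fell into 2 levels, with Pers2 and PAt above Pers1 and Arrested. Tgfbr1 was higher than in Teff cells by 1.35 ± 0.06 in the persistent populations (adjusted p = 1.3e-13) and by 1.32 ± 0.06 in PAt/Arrested cells (adjusted p = 2e-13). The persistent populations and PAt/Arrested cells did not differ beyond their spread (0.02 ± 0.05, adjusted p = 0.683), and neither did Teff and Tnaive cells (-0.04 ± 0.07, adjusted p = 0.7). Among the tested genes, Dgat2, Gbp5 and Bicd1 were most like Tgfbr1 (Pearson r of 0.982, 0.978 and 0.977).

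Tgfbr2, the type II receptor that binds the ligand first, ran the other way. Its level was 13.79 ± 0.06 in Tnaive, 13.44 ± 0.03 in Teff, 13.03 ± 0.04 in Arrested, 12.97 ± 0.06 in PAt, 12.63 ± 0.02 in Pers2 and 12.49 ± 0.05 in Pers1 cells. The 12 Timer+ libraries, at 12.43 to 13.07, were all below the 6 Timer-negative ones, at 13.4 to 13.85. Tgfbr2 was lower in persistent than in PAt/Arrested cells (log2 fold change -0.44 ± 0.03, adjusted p = 1.1e-10) and than in Teff cells (-0.88 ± 0.04, adjusted p = 6.9e-14). No difference of Tgfbr2 reached the fold threshold in the comparisons for which genes were called. These did not set persistent against Tnaive cells, and the means at the ends of the order were 13.79 in Tnaive and 12.49 in Pers1 cells. Arrested and PAt cells were the only neighbours in that order that did not differ beyond their spread (adjusted p = 0.541). Crtam, Adh1 and Man1c1 were most like Tgfbr2 (Pearson r of 0.982, 0.981 and 0.978).

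Tgfbr3, also called betaglycan, is a co-receptor that presents ligand to TGFBR2. It was the gene of the group that fell most. Its levels were 11.89, 11.85 and 11.83 in Tnaive and 11.77, 11.55 and 11.52 in Teff libraries. They were 9.94, 9.87 and 9.69 in Arrested, 9.38, 9.4 and 9.38 in PAt, 8.72, 8.27 and 8.31 in Pers1, and 7.97, 8.03 and 7.76 in Pers2 libraries. The libraries of any 1 population did not overlap those of another. Tgfbr3 fell in the persistent populations against PAt/Arrested cells (log2 fold change -1.43 ± 0.07, adjusted p = 3.2e-13) and against Teff cells (-3.44 ± 0.09, adjusted p = 1.3e-17). In PAt/Arrested cells it fell by 2.0 on the log2 scale against Teff cells (adjusted p = 7.4e-14) and by 2.25 against Tnaive cells (adjusted p = 7.3e-15). The gene overlaps Gm8145 on the other strand and Gm43422, Gm43423 and Gm42900 on its own, whose reads the counting could split. Over the 18 libraries Tgfbr2 and Tgfbr3 had a Pearson r of 0.959, and Gtf2i, Dapl1 and Ntrk3 were the genes most like Tgfbr3 (0.989, 0.985 and 0.984).

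Smad3, which carries the signal to the nucleus, differed little. All 18 libraries lay between 11.35 and 11.87. It was higher in persistent than in PAt/Arrested cells by 0.18 ± 0.04 (adjusted p = 0.0003) and than in Teff cells by 0.29 ± 0.05 (adjusted p = 2.5e-05). No neighbours in the order of its 6 means differed beyond their spread. The genes most like it were Cdipt, 1200014J11Rik and Wrnip1 (Pearson r of 0.934, 0.903 and 0.901), which was a looser likeness than for the other 9 genes.

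Smad7, the receptor-blocking SMAD that TGF-beta itself induces, divided the populations in another way. Its levels were 12.68, 12.51 and 12.36 in Tnaive, 12.26, 12.14 and 12.23 in PAt, and 12.43, 12.33 and 12.01 in Arrested libraries. They were 11.09, 10.84 and 10.7 in Teff, 11.16, 11.25 and 11.14 in Pers1, and 11.38, 11.43 and 11.29 in Pers2 libraries. The first 3 populations were all above the other 3, so that Smad7 did not follow the line between Timer+ and Timer-negative cells. It fell in Teff against Tnaive cells (log2 fold change -1.64 ± 0.1, adjusted p = 5.6e-12) and was called higher in PAt/Arrested than in Teff cells (1.35 ± 0.08, adjusted p = 1.7e-11). Between the persistent populations and PAt/Arrested cells the log2 fold change was -0.96 ± 0.07 (adjusted p = 9.4e-11), just short of the fold threshold. Centring each library on its median, or leaving out Arrested replicate 3, made it -1.02.

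Ski, the repressor of SMAD target genes, split the populations in the same way over a smaller range. It had a mean of 13.51 ± 0.06 in PAt, 13.51 ± 0.14 in the Arrested population and 13.4 ± 0.04 in Tnaive cells, while the Pers1, Pers2 and Teff libraries ran from 12.88 to 13.05. The lowest library of the first 3 populations, at 13.35, was above the highest of the other 3, at 13.05. Ski was lower in persistent than in PAt/Arrested cells (-0.52 ± 0.04, adjusted p = 8e-10) and in Teff than in Tnaive cells (-0.45 ± 0.06, adjusted p = 1.9e-06). Smad7 and Ski had a Pearson r of 0.921 over the 18 libraries. The genes most like Smad7 were Sh3bp1, Pip5k1c and Traf4 (0.981, 0.965 and 0.964), and those most like Ski were Tpcn1, Ttll3 and Mllt6 (0.981, 0.976 and 0.971).

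The calls were also counted over the group, beside the share of all genes tested. Between the persistent populations and PAt/Arrested cells, 0 of 10 were called higher, where 4.74% of all genes tested were, and 1 of 10 lower, Tgfbr3, where 2.77% were. By an adjusted p under 0.05 alone, 3 were higher (35.9% of all genes) and 6 lower (35.1%). The counts were the same at an unadjusted p under 0.05, where 4848 of the 13190 genes tested were higher and 4772 lower. The median log2 fold change was -0.48 for the 10 genes and -0.01 for all genes. The higher genes were the ligand, its protease and Smad3, and the lower genes were Lrrc32, Itgb8, Tgfbr2, Tgfbr3, Smad7 and Ski.

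Against Teff cells, Lrrc32, Itgb8 and Tgfbr1 were called higher in the persistent populations and Tgfbr3 lower, which is 3 of 10 (4.28% of all genes) and 1 of 10 (4.03%). In PAt/Arrested cells Smad7 was called higher as well, which made 4 of 10 (2.84%), with Tgfbr3 again lower, 1 of 10 (4.04%). These comparisons share the Teff libraries. Against Tnaive cells, PAt/Arrested cells had 3 of 10 called higher (6.63%), again Lrrc32, Itgb8 and Tgfbr1, and 1 of 10 lower (1.27%), Tgfbr3. The comparison with Tnaive used no Teff library, and in a fit without the 3 Teff libraries it gave 3 called higher and 1 lower, while persistent against PAt/Arrested cells gave 0 and 1. Teff against Tnaive cells had 1 of 10 called higher, Itgb8 (8.88%), and 1 of 10 lower, Smad7 (2.28%). Lrrc32, Tgfbr1 and Tgfbr3, which were called in each comparison of Timer+ with Timer-negative cells, were called in neither direction there.

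**Figure D2:**
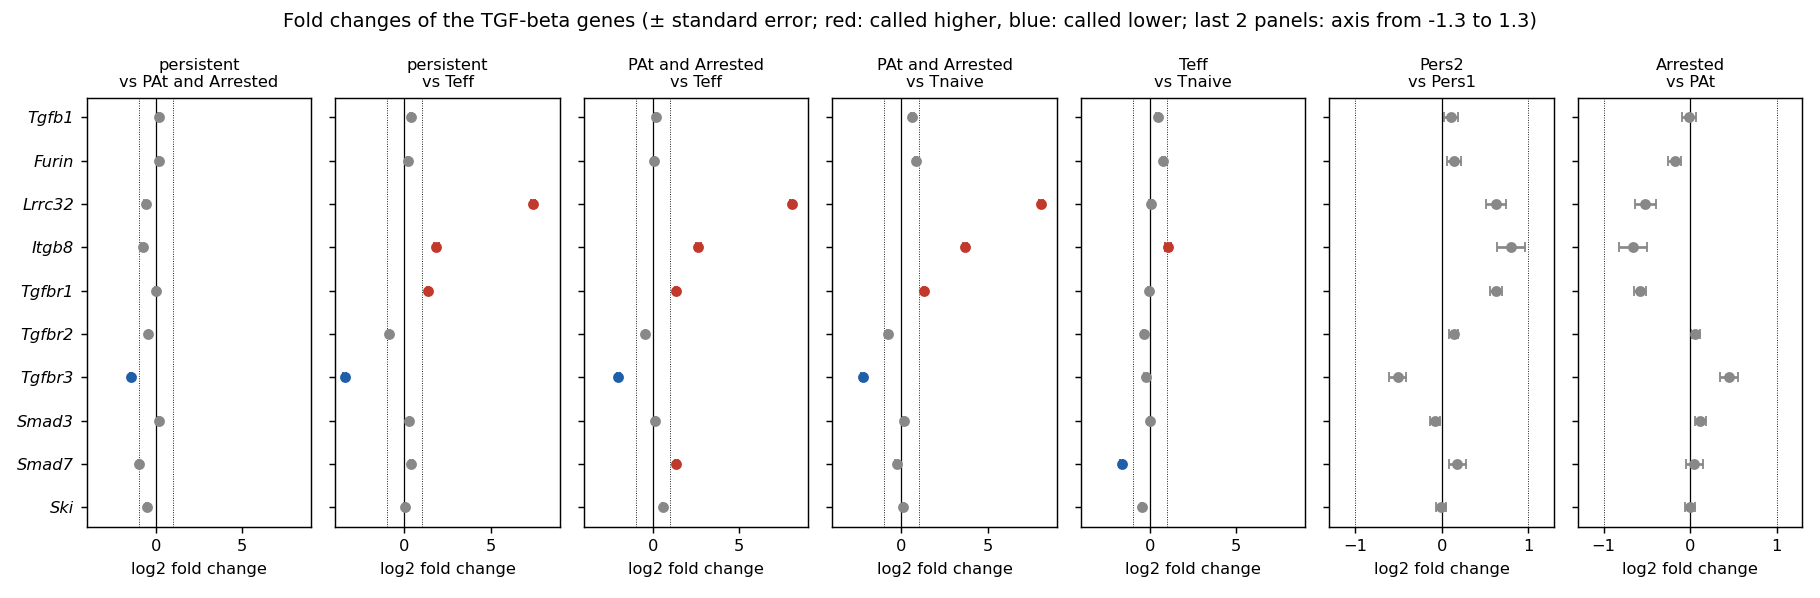
Log2 fold changes (x axis) of the 10 genes (y axis) in 7 comparisons, with ± SE, red where called higher and blue where called lower, and dotted lines at -1 and 1. The last 2 panels have an axis of their own range, and no gene passes the dotted lines there. Lrrc32 lies at 7.45 and 8.03 against Teff cells, far from the other genes.

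The pairs within the Timer+ cells share no library. Pers2 was gated higher than Pers1 in both Timer forms, and PAt higher than Arrested in both. Between Pers2 and Pers1, 0 of 10 genes were called in either direction (0.144% of all genes higher, 0.0455% lower). By adjusted p alone 4 were higher (6.02%) and 1 lower (4.56%). The counts were the same at an unadjusted p under 0.05, where 1689 of the 13190 genes tested were higher and 1471 lower. Between Arrested and PAt, 0 of 10 were called (0.0455% higher, 0.0758% lower), and by adjusted p alone 1 was higher (2.07%) and 3 lower (2.97%). At an unadjusted p under 0.05 there were 2 higher and 4 lower, against 1044 and 1340 of the 13190 genes tested.

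By adjusted p alone, the same 3 genes were higher in Pers2 (against Pers1) and in PAt (against Arrested). Itgb8 was higher in Pers2 than in Pers1 by 0.8 ± 0.16 (adjusted p = 0.00254) and had a log2 fold change of -0.66 ± 0.16 in Arrested against PAt cells (adjusted p = 0.0177). Lrrc32 had 0.63 ± 0.12 (adjusted p = 0.00118) and -0.52 ± 0.12 (adjusted p = 0.0108). Tgfbr1 had 0.63 ± 0.07 (adjusted p = 1.1e-05) and -0.58 ± 0.07 (adjusted p = 4.8e-05). The population gated higher in Timer had the higher level of all 3 genes in either pair. Of all genes tested, 1.33% were higher in both Pers2 and PAt by that rule.

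Tgfbr3 went the other way in both pairs, lower in Pers2 than in Pers1 (-0.51 ± 0.1, adjusted p = 0.00286) and higher in Arrested than in PAt cells (0.45 ± 0.1, adjusted p = 0.013). Of all genes, 0.758% were lower in both Pers2 and PAt. Tgfbr2 was higher in Pers2 than in Pers1 by 0.14 ± 0.05 (adjusted p = 0.0483), which missed the threshold in most alternative fits, up to an adjusted p of 0.219. The differences between Arrested and PAt were the less stable. The adjusted p of Itgb8 reached 0.0754 without Arrested replicate 2 and was over 0.05 in 4 of the 6 fits that left out a library. That of Lrrc32 reached 0.0627 without PAt replicate 1 and 0.0505 in a fit of these populations alone, and that of Tgfbr3 0.0597 without Arrested replicate 2. The differences of Tgfbr1 stayed under 0.05 in both pairs in all 14 fits.

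**Figure D3:**
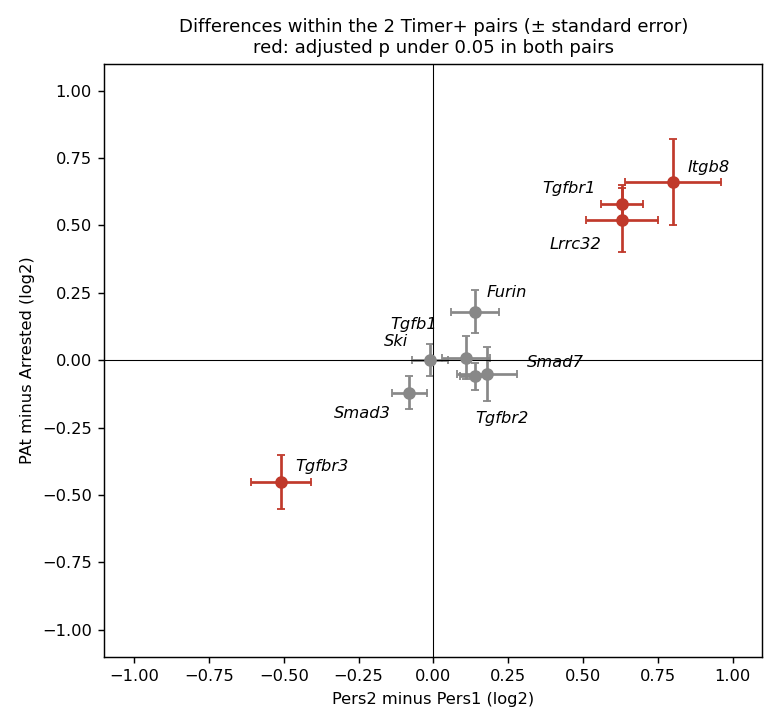
Pers2 minus Pers1 (x axis) against PAt minus Arrested (y axis) of the 10 genes, both in log2 units with ± SE. Red points had an adjusted p under 0.05 in both pairs. Itgb8, Lrrc32 and Tgfbr1 sit at the upper right and Tgfbr3 at the lower left, while the other 6 genes lie near 0.

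Whether persistent and PAt/Arrested cells differed in the way that Teff and Tnaive cells do was tested as the difference of the 2 changes. Itgb8 and Tgfbr3 were called, both lower, which is 2 of 10 (6.9% of all genes), and 0 of 10 were called higher (1.52%). By unadjusted p under 0.05 there were 5 lower and 2 higher, against 3699 and 3471 of the 13190 genes tested. For Itgb8 the difference was -1.82 ± 0.19 (adjusted p = 1.2e-07), since it was higher in Teff than in Tnaive cells and lower in persistent than in PAt/Arrested cells. For Tgfbr3 it was -1.19 ± 0.13 (adjusted p = 1.2e-07), with the same direction in both comparisons and a larger change among Timer+ cells. Lrrc32 (-0.63 ± 0.14), Furin (-0.62 ± 0.1), Tgfb1 (-0.27 ± 0.1) and Smad7 (0.68 ± 0.12) had an adjusted p under 0.05 with a smaller difference. That of Tgfb1, 0.0347, was under 0.05 in 11 of 24 settings and reached 0.12 without Teff replicate 3. Smad7 was lower in the persistent populations and in Teff cells, and by more in the latter. Ski did not differ between the comparisons beyond its spread (-0.07 ± 0.07, adjusted p = 0.464).

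Other genes of the pathway were taken from a list of 70 symbols, of which 58 were in the table and 52 were tested. Between the persistent populations and PAt/Arrested cells, 7 of 52 were called higher (4.74% of all genes) and 0 lower (2.77%). By adjusted p alone 15 were higher (35.9%) and 23 lower (35.1%). At an unadjusted p under 0.05 limma gave 16 and 24, against 4848 and 4772 of the 13190 genes tested. The median log2 fold change of the list was -0.05. The 5 with the largest rise were the matrix protease Mmp9 (2.38 ± 0.11, adjusted p = 3.3e-14), which can release latent ligand, the ligand Tgfb3 (1.55 ± 0.09, adjusted p = 3.7e-12), the integrin subunit Itgb1 (1.4 ± 0.06, adjusted p = 5.3e-15), and among commonly used targets Itgae, which encodes CD103 (2.36 ± 0.06, adjusted p = 3.5e-18), and the cell cycle inhibitor Cdkn1a (1.41 ± 0.12, adjusted p = 1.7e-09). The other 2, named after their values were seen, were the ligand Bmp7 (1.12 ± 0.09) and Fkbp1a (1.13 ± 0.04), whose product binds the type I receptor. Of the 19 tested regulators of SMAD signalling, 11 were lower by adjusted p alone and 3 higher.

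**Figure D4:**
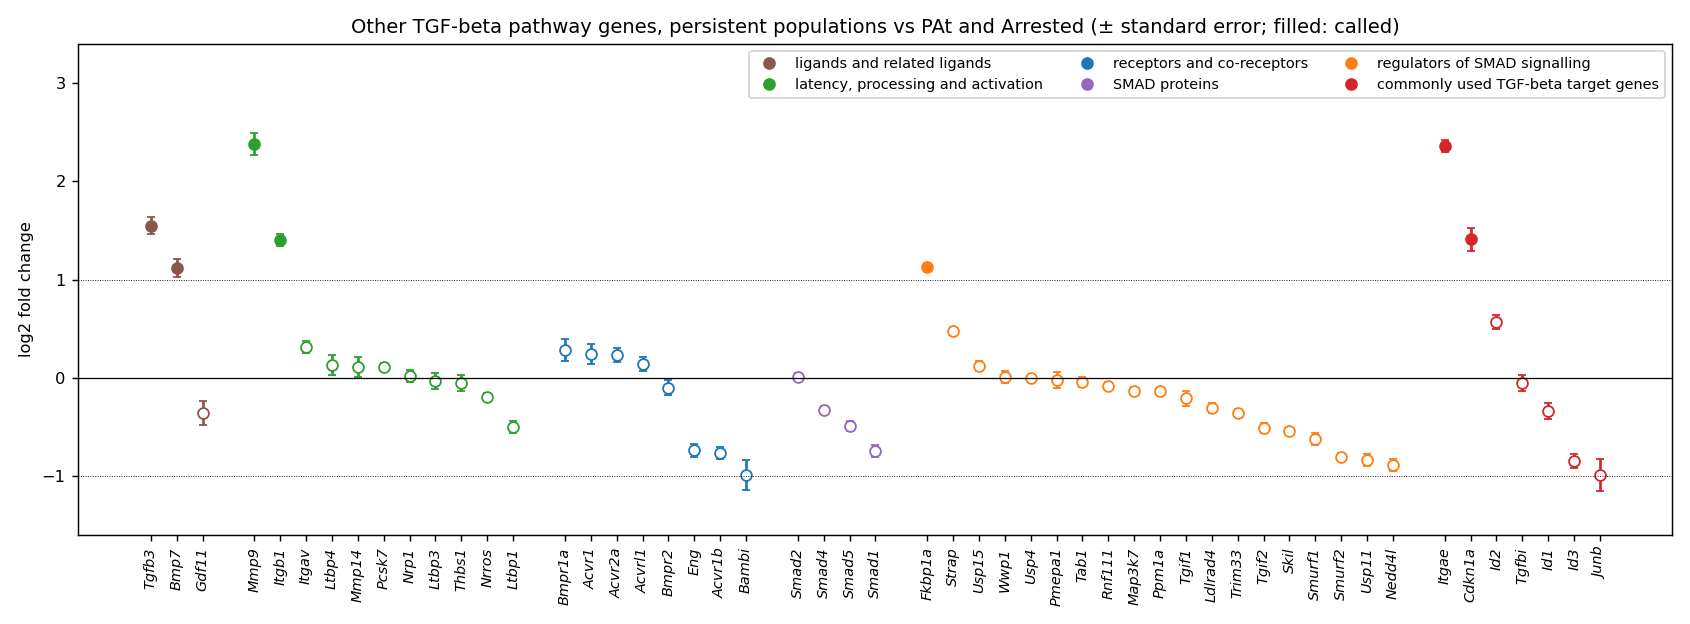
Log2 fold changes (y axis, ± SE) of the 52 tested genes of the list (x axis), in the persistent populations against PAt/Arrested cells, coloured by role, with filled points for called genes and dotted lines at -1 and 1. All 7 filled points lie above 1, and no gene is called below -1.

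Against Teff cells the list had 7 called higher (4.28% of all genes) and 6 lower (4.03%) in the persistent populations, and 5 higher (2.84%) and 5 lower (4.04%) in PAt/Arrested cells. Itgae rose in both, by 3.95 ± 0.07 and 1.59 ± 0.07, and so did Pmepa1, a SMAD-induced inhibitor of the pathway, by 2.02 ± 0.1 and 2.04 ± 0.1. Skil, a relative of Ski that TGF-beta induces, rose by 1.11 ± 0.05 in PAt/Arrested cells. Tgfb3 (-1.63 ± 0.11 and -3.18 ± 0.11) and Tgfbi (-2.29 ± 0.09 and -2.24 ± 0.09), a secreted matrix protein, fell in both, and both were highest in Teff libraries, which held the most marker RNA of dendritic cells, B cells and macrophages. Among commonly used targets, Itgae was higher and Tgfbi lower than in Teff cells in both Timer+ pairs.

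Against Tnaive cells, 10 of the list were called higher (6.63% of all genes) and 2 lower (1.27%) in PAt/Arrested cells, led by Nrp1 (5.46 ± 0.07), a surface receptor that binds latent TGF-beta, and Itgae (4.7 ± 0.07). Acvrl1, a type I receptor, fell (-2.55 ± 0.08), as did Id2, an inhibitor of basic helix-loop-helix factors (-1.13 ± 0.08). Teff against Tnaive cells had 9 higher (8.88%) and 3 lower (2.28%), with Nrp1 at 5.07 ± 0.08 and Itgb1 at 4.69 ± 0.08 the largest rises and Nedd4l, a ubiquitin ligase that acts on SMADs (-1.34 ± 0.09), and Acvrl1 (-1.33 ± 0.09) the largest falls. Within the pairs, Mmp9 was the only one of the list called between Pers2 and Pers1 (1.21 ± 0.15, adjusted p = 2.2e-05), where 0.144% of all genes were called higher, and Itgae the only one between Arrested and PAt (-1.16 ± 0.08, adjusted p = 2.7e-08), where 0.0758% were called lower. In the test of the difference between the 2 changes, 3 of the list were called higher (1.52% of all genes) and 7 lower (6.9%), with Nrp1 at -5.05 ± 0.1 and Itgb1 at -3.3 ± 0.1.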

How the data were processed

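Stranded mRNA libraries were made from 18 samples of sorted cells. Per the labels, reads were demultiplexed with CASAVA 1.8.2, checked with FastQC 0.11.2 and aligned to mm10 with TopHat2 2.0.9, and counts were processed with DESeq2. The read counter and whether it used strand are not given in the sources used here. The deposited table holds 15402 genes as log2 normalised counts (range -0.0208 to 18.8948), which the authors made with DESeq2 and which have the form of its regularised log. The values were used as deposited, with no pseudocount. No count model was run, since the values are not counts. In 22 rows the symbol is a date, and these rows are not named.

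Genes whose mean over the libraries was under 3 on the log2 scale were left out (2212), and the other 13190 were tested. One linear model of the 6 populations (12 residual degrees of freedom) was fitted with limma 3.58.1 in R 4.3.3, with a trend in the variance prior, Benjamini-Hochberg adjustment over all genes tested, and the study's thresholds of adjusted p under 0.05 and absolute log2 fold change over 1. The model was tested on simulated data. The 10 genes, the pathway list and the marker lists were chosen with earlier results of these data known. All 10 genes are named, with the 3 genes most like each by Pearson r and, of the pathway list, up to 5 called genes each way per comparison. Gene positions are from GENCODE vM21 (GRCm38) and promoters from RefSeq.

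The populations were sorted from the same mice, so libraries with the same replicate number may come from the same pool, although no source states this outright. Deviations from population means had a median correlation of 0.166 over 45 pairs of libraries with the same number (from -0.206 to 0.436, 42 above 0) and -0.0642 over 90 pairs with different numbers. The study names no block, so the model had none and pairing entered only as an alternative. Replicates are pools of 3 mice, and p-values measure the spread between them. Alternatives were other filters, samples, prior, centring, threshold, a replicate block, and leaving out each library. A fit without the 3 Teff libraries was added after markers of other cell types had been seen in them.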

Additional observations from a re-analysis of the deposited data

Results flagged for a closer look

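The change between the persistent populations and PAt/Arrested cells differed from the change between Teff and Tnaive cells for 2 of the 10 genes past the fold threshold, in the limma test of the difference itself. For Itgb8 the log2 difference was -1.82 (adjusted p = 1.2e-07). Its log2 fold change was -0.77 in the persistent populations and 1.06 in Teff cells, and both the Teff level and its spread are described above. For Tgfbr3 the log2 difference was -1.19 (adjusted p = 1.2e-07), with log2 fold changes of -1.43 and -0.24.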

How the results depend on the processing

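With the replicate block, no call of the 10 genes at the fold threshold changed in any of the 8 comparisons, and 3 differences of 0.11 to 0.16 moved under an adjusted p of 0.05 (Smad3 in PAt/Arrested against Teff cells, 0.0249, Ski against Tnaive cells, 0.0497, and Smad3 in the difference of the 2 changes, 0.0209). Without a fold threshold, the counts of the 10 genes were 9 for persistent against PAt/Arrested, 9 for persistent against Teff, 8 and 9 for PAt/Arrested against Teff and Tnaive, 7 for Teff against Tnaive, 5 and 4 for the pairs Pers2 and Pers1 and Arrested and PAt, and 6 for the difference of the 2 changes. Over all genes these counts were 9357, 7739, 6950, 6684, 7785, 1395, 665 and 6420, against 990, 1096, 908, 1042, 1472, 25, 16 and 1110 with it. Centring each library on its median gave 2 of the 10 for persistent against PAt/Arrested, with Smad7 at -1.02, and 1 for Teff against Tnaive, with Itgb8 at 0.97. Leaving out 1 library gave 1 to 2 in both of these comparisons, with 2 in the first only without Arrested replicate 3 and 1 in the second only without Teff replicate 2. Without Arrested replicate 3, 26 genes of all were called between Arrested and PAt.

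Differences near 0 changed sign. After centring they were -0.04 for Tgfbr1 in persistent against PAt/Arrested cells, -0.02 for Ski in persistent against Teff cells, -0.04 for Lrrc32 and -0.06 for Smad3 in Teff against Tnaive cells, and 0.02 for Ski and 0.02 for Tgfb1 in Arrested against PAt cells. Leaving out 1 library, they ran from -0.02 to 0.06 for Smad3 in Teff against Tnaive, -0.01 to 0.06 for Tgfbr1 in persistent against PAt/Arrested, -0.04 to 0.04 for Ski in Pers2 against Pers1, and -0.06 to 0.07 for Ski, -0.08 to 0.06 for Tgfb1 and -0.03 to 0.17 for Smad7 in Arrested against PAt. None of these had an adjusted p under 0.05, and the cause was not tested. The fit of only the compared populations could not be made for the difference of the 2 changes, which uses all 6. Depth is unknown, so the counting error, which is largest for low genes such as Itgb8 in Tnaive cells, could not be estimated.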
